A study of Mus musculus with 12 samples.

Results

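Genes of glycolysis and of 2,3-bisphosphoglycerate metabolism were followed through erythroblasts of mice on a selenium-deficient or a selenium-adequate diet. The set held 10 named genes, chosen by symbol: Hk1, Hk2, Gpi1, Pfkl, Aldoa, Tpi1, Gapdh, Pgk1, Bpgm and Pklr. Of these, 9 had an array feature annotated to their symbol alone, among 30701 genes with such a feature, and Gpi1 was not analysed here. All 9 were among the 20129 genes tested, and each was above the filter value of 5.30 on the log2 scale in all 12 arrays.

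The 4 groups, of 3 arrays each, were basophilic erythroblasts from mice on the deficient diet, basophilic erythroblasts on the adequate diet, proerythroblasts on the deficient diet and proerythroblasts on the adequate diet. All mice were male, had been on their diet for 3 months and had received phenylhydrazine, which lyses red cells, and spleens were taken on day 3. The cells were sorted by flow cytometry, so the arrays show erythroblasts of the anaemic spleen, where stress erythropoiesis takes place, and hold no sample without phenylhydrazine. Strain, genotype, age and any pooling of mice are not given in the sources used here, nor whether the 3 arrays of a group came from separate mice, so p-values measure the spread between these arrays. Proerythroblasts are the earlier stage and basophilic erythroblasts the next.

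Glycolysis breaks glucose down to pyruvate and makes ATP on the way. It is the only source of ATP once a red cell has lost its mitochondria. In red cells part of the flow between the Gapdh and Pklr steps is diverted by bisphosphoglycerate mutase, the product of Bpgm, into 2,3-bisphosphoglycerate, which lowers the affinity of haemoglobin for oxygen.

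Arrays differed in more than the group. The median of the background features was 3.73 to 4.70 in deficient and 3.63 to 4.19 in adequate basophilic arrays, against 3.31 to 3.47 in deficient and 3.36 to 3.53 in adequate proerythroblast arrays. Replicate 2 of both basophilic groups stood apart, with the highest backgrounds (4.70 on the deficient and 4.19 on the adequate diet) and the narrowest interquartile ranges (2.17 and 2.25). The description of deficient basophilic replicate 3 names the other stage, while its title and cell type label say basophilic, and it was kept there. Over all genes tested its Pearson r was 0.991 and 0.862 with deficient basophilic replicates 1 and 2. It was 0.98, 0.94 and 0.98 with the adequate basophilic arrays. With the deficient proerythroblast arrays it was 0.945, 0.945 and 0.946, and with the adequate ones 0.899, 0.9 and 0.893. For Bpgm (10.35) and Tpi1 (8.27) it lay among the other basophilic arrays, but these are genes of the set and cannot settle its stage.

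Over the 4 groups the genes did not move as a block. Bpgm was far higher in basophilic erythroblasts than in proerythroblasts, whereas Tpi1, Gapdh, Pgk1 and Pklr were lower there, on both diets. In proerythroblasts Bpgm was higher and Tpi1 lower on the deficient diet. In bulk RNA of sorted cells, a change in the mix of cells and a change in RNA per cell cannot be told apart. In basophilic erythroblasts no gene of the set passed the test for the diet.

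**Figure D1:**
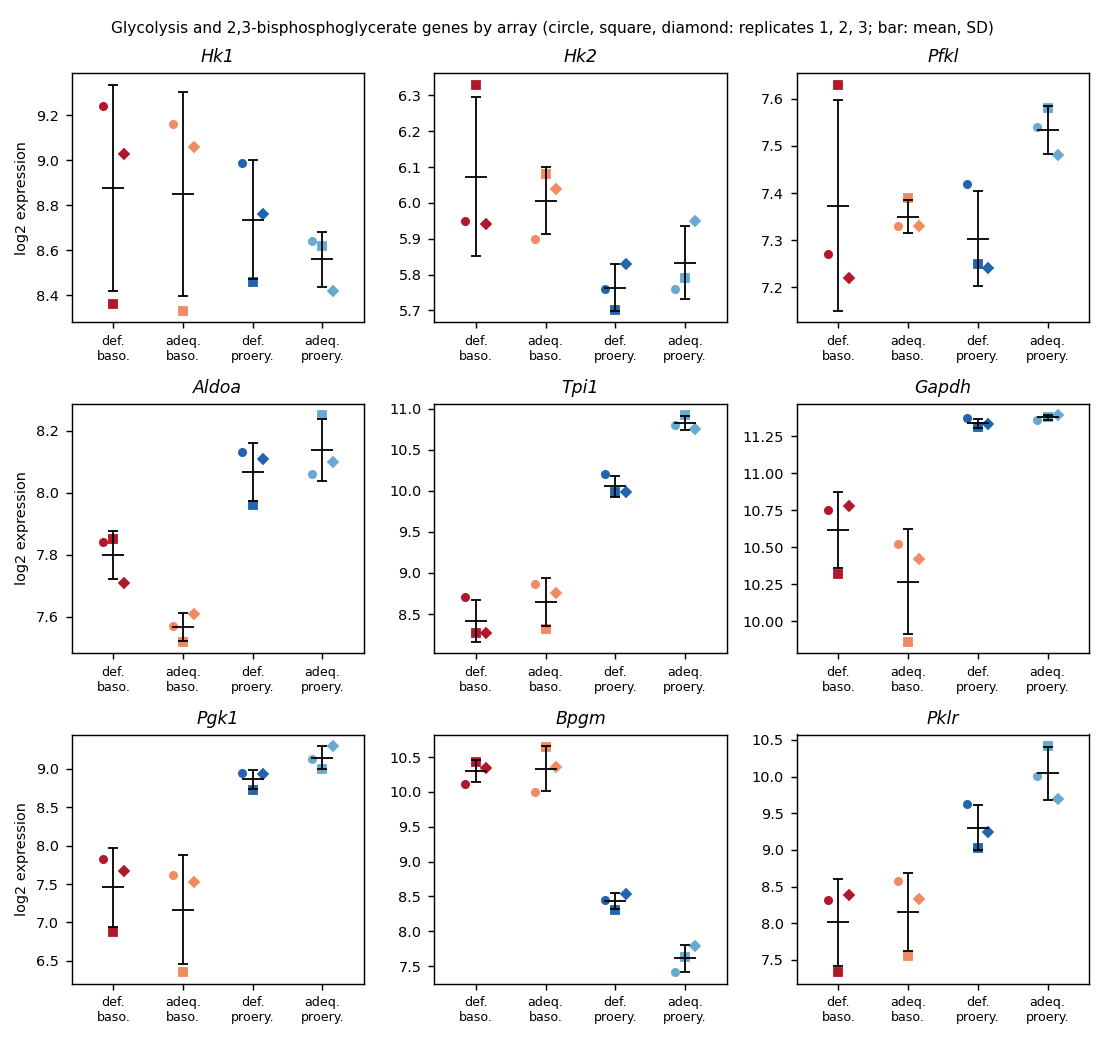
Log2 expression (y axis, 1 scale per gene) of the 9 measured genes in deficient basophilic, adequate basophilic, deficient proerythroblast and adequate proerythroblast arrays (x axis, left to right); symbols are arrays, long bars are means and whiskers are SDs (n = 3 per group). Bpgm lies between 10 and 10.65 in the 6 basophilic arrays and between 7.41 and 8.54 in the 6 proerythroblast arrays, while Tpi1 runs the other way.

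In proerythroblasts the question was which genes of the set responded to the deficient diet. Bpgm rose by 0.82 on the log2 scale, or 1.77-fold, and Tpi1, which interconverts the triose phosphates, fell to 0.586 times its adequate level. These were 2 of the 9 genes tested, 1 higher and 1 lower, beside 4.02% of all 20129 genes (1.27% higher and 2.76% lower; limma, adjusted p under 0.05). The other 7 did not pass. The share of all genes was 1.56% and 1.69% without adequate proerythroblast replicate 1 or 2 and 2.26% and 1.60% without deficient proerythroblast replicate 2 or 3. No gene of the set passed in any of these fits. The share was 8.98% once deficient basophilic replicate 2 was left out, where Bpgm and Tpi1 passed. It was 16.4% once basophilic replicate 2 was left out on both diets, where Pklr passed beside them. With the replicate number as a block within each stage it was 11.1%, and 3 of the 9 genes passed. Deficient and adequate arrays were fully separated for 5 of the 9 (Pfkl, Tpi1, Pgk1, Bpgm and Pklr), beside 31.1% of all genes.

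Bpgm had log2 values of 8.45, 8.31 and 8.54 in deficient proerythroblasts, against 7.41, 7.63 and 7.79 in adequate proerythroblasts. Every deficient array was above every adequate one. The difference was 0.82 (SE 0.17, 95% interval 0.44 to 1.20, adjusted p = 0.0212 by limma). The call depended on single arrays: the adjusted p was 0.117 and 0.0843 without adequate proerythroblast replicate 1 or 2, and 0.0619, 0.0506 and 0.108 without deficient proerythroblast replicate 1, 2 or 3, with differences between 0.72 and 0.89. Under quantile normalization the difference was 0.74 and the adjusted p 0.130.

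Tpi1 had 10.20, 9.98 and 9.98 in deficient proerythroblasts, against 10.80, 10.92 and 10.75 in adequate proerythroblasts. The groups did not overlap, and each was tight. Tpi1 fell by 0.77 (SE 0.17, 95% interval -1.14 to -0.40, adjusted p = 0.0269). That call too was lost without adequate proerythroblast replicate 1, 2 or 3 (adjusted p 0.0996, 0.126 and 0.0628) and without deficient proerythroblast replicate 2 or 3 (0.105 and 0.124), with differences between -0.81 and -0.72, and under a trended and robust variance (0.0539).

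Pklr encodes the red cell and liver pyruvate kinase, which makes ATP in the last step of glycolysis. It had 9.63, 9.03 and 9.25 in deficient proerythroblasts, against 10.01, 10.42 and 9.70 in adequate proerythroblasts. All deficient values were below the adequate ones, but adequate replicate 3 lay only just above deficient replicate 1. The difference of -0.74 (SE 0.33, 95% interval -1.46 to -0.02) did not pass (adjusted p = 0.335). With the replicate number as a block within each stage it did (adjusted p = 0.0338), as it did without replicate 2 of both basophilic groups (0.0322).

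The remaining genes in proerythroblasts differed less. Pfkl, the liver-type phosphofructokinase of the first committed step, had 7.42, 7.25 and 7.24 in deficient and 7.54, 7.58 and 7.48 in adequate proerythroblasts, a difference of -0.23 (adjusted p = 0.523). Pgk1, the phosphoglycerate kinase that makes the first ATP of the pathway, had 8.94, 8.72 and 8.93 in deficient and 9.13, 9.0 and 9.30 in adequate proerythroblasts, a difference of -0.28 (adjusted p = 0.935). For both genes the deficient arrays were all below the adequate ones without passing the test. Hk1 and Hk2, hexokinases that trap glucose in the cell, differed by 0.18 and -0.07, the aldolase gene Aldoa by -0.07 and Gapdh, which forms 1,3-bisphosphoglycerate, by -0.04. The median difference of the 9 genes was -0.07, beside 0.02 over all genes tested.

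The same question in basophilic erythroblasts gave no call. None of the 9 genes passed the limma test, beside 0.0199% of all genes (4 of 20129; 0.00994% higher and 0.00994% lower), and none had an unadjusted p under 0.05, against 1305 of all genes. The share of all genes was 1.44% once deficient basophilic replicate 2 was left out, 2.09% once basophilic replicate 2 was left out on both diets and 1.45% with the block within each stage, and none of the 9 genes passed in those fits either. Bpgm had 10.12, 10.43 and 10.35 in deficient basophilic erythroblasts, against 10, 10.65 and 10.36 in adequate basophilic erythroblasts. The arrays overlapped fully, and the difference was -0.04 with a 95% interval of -0.42 to 0.34.

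Tpi1 had 8.71, 8.27 and 8.27 in deficient basophilic erythroblasts, against 8.86, 8.32 and 8.76 in adequate basophilic erythroblasts. These values overlapped, and the interval of the difference, -0.60 to 0.14, includes 0. The arrays of the diets failed to overlap for 1 of the 9 genes, beside 8.04% of all genes. That gene was Aldoa, with 7.84, 7.85 and 7.71 in deficient and 7.57, 7.52 and 7.61 in adequate basophilic erythroblasts, a difference of 0.23 (95% interval -0.01 to 0.48, adjusted p = 0.788).

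Gapdh had 10.75, 10.32 and 10.78 in deficient and 10.52, 9.86 and 10.42 in adequate basophilic erythroblasts, a difference of 0.35 (95% interval -0.04 to 0.74, adjusted p = 0.829). In both groups replicate 2 was the low array. Differences of the remaining genes were 0.03 for Hk1, 0.07 for Hk2, 0.02 for Pfkl, 0.29 for Pgk1 (95% interval -0.41 to 0.99) and -0.14 for Pklr (95% interval -0.86 to 0.58). The wide intervals of Pgk1 and Pklr came with replicate 2: Pklr had 7.33 there, against 8.32 and 8.39 in the other deficient arrays, and 7.55, against 8.58 and 8.33 in the other adequate arrays. The median difference of the 9 genes was 0.03, beside 0.04 over all genes.

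**Figure D2:**
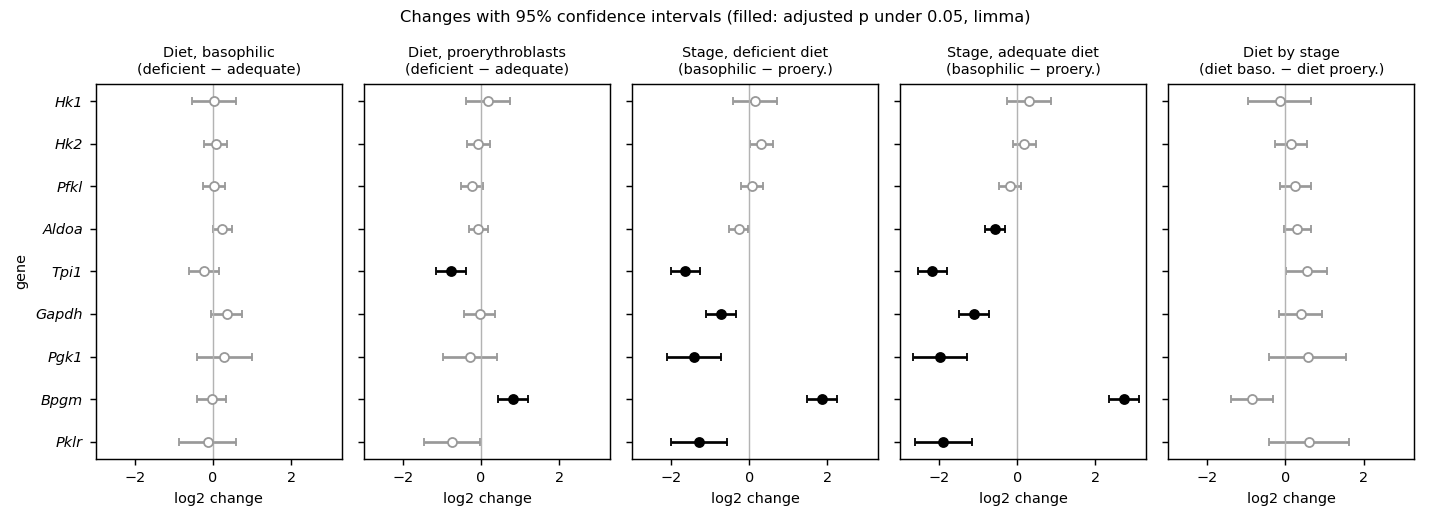
Log2 change (x axis) with its 95% confidence interval for each gene (y axis) in 5 comparisons; filled points have an adjusted p under 0.05 (limma, n = 3 arrays per group). Bpgm and Tpi1 are filled for the diet in proerythroblasts, no gene is filled for the diet in basophilic erythroblasts or for diet by stage, and Bpgm is the one gene filled to the right for the stage on both diets.

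Whether the diet acted differently at the stages was asked by the interaction, which subtracts the proerythroblast diet effect from the basophilic one. None of the 9 genes passed, beside 0.303% of all genes (61 of 20129), and 2 had an unadjusted p under 0.05, against 1842 of all genes. Those were Bpgm, with -0.86 (SE 0.25, 95% interval -1.40 to -0.32, adjusted p = 0.204), and Tpi1, with 0.54 (95% interval 0.01 to 1.07, adjusted p = 0.522). With the replicate number as a block within each stage Bpgm did pass (adjusted p = 0.0360), beside 2.93% of all genes, and the other 8 genes did not. In the other settings its adjusted p ran from 0.0802 to 0.602. A difference between the stages in the diet effect on Bpgm thus depended on the block, and none was shown for the other genes of the set, Tpi1 included.

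The stage comparison set basophilic erythroblasts against proerythroblasts on each diet. It uses the same proerythroblast arrays as the diet comparison, so its values stand beside that comparison and are not independent of it. On the deficient diet 5 of the 9 genes passed (Bpgm higher, and Tpi1, Gapdh, Pgk1 and Pklr lower), beside 56% of all genes (31.1% higher and 24.9% lower). On the adequate diet 6 passed, the same 5 and Aldoa lower, beside 54.2% of all genes (28.7% higher and 25.6% lower). Arrays of the stages did not overlap for 7 of the 9 genes on either diet, beside 66.5% of all genes on the deficient and 74% on the adequate diet. These shares are near those of all genes, so the counts by themselves say little about the set. The share of all genes fell to 34% and 24.6% on the deficient diet without deficient proerythroblast replicate 1 or 3. On the adequate diet it fell to 27.9% without adequate basophilic replicate 2 and to 30.8% and 30.2% without adequate proerythroblast replicate 1 or 2, while 5 and 6 genes of the set still passed. Under quantile normalization the split was 2 higher and 4 lower on each diet.

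Of the set, the genes of glucose phosphorylation and of the phosphofructokinase step, Hk1, Hk2 and Pfkl, did not pass with stage. Hk1 had 9.24, 8.36 and 9.03 in deficient basophilic erythroblasts, 9.16, 8.33 and 9.06 in adequate basophilic erythroblasts, 8.99, 8.46 and 8.76 in proerythroblasts on the deficient diet and 8.64, 8.62 and 8.42 in those on the adequate diet. Replicate 2 was again the low array of both basophilic groups, and all 4 groups overlapped. The stage difference of Hk1 was 0.14 on the deficient diet (adjusted p = 0.649) and 0.29 on the adequate diet; without replicate 2 of both basophilic groups it was 0.40 (adjusted p = 0.0435) and 0.55 (0.00935), and median centring turned the deficient value to -0.05.

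Hk2 was dim, with means of 6.07 ± 0.22 in deficient and 6.01 ± 0.10 in adequate basophilic erythroblasts and 5.76 ± 0.07 in deficient and 5.83 ± 0.10 in adequate proerythroblasts (SD, n = 3 each). Its stage difference was 0.31 on the deficient diet (adjusted p = 0.0650; 0.0454 without deficient basophilic replicate 3) and 0.17 on the adequate diet. Pfkl averaged 7.37 ± 0.22 in deficient and 7.35 ± 0.04 in adequate basophilic erythroblasts, against 7.30 ± 0.10 in deficient and 7.53 ± 0.05 in adequate proerythroblasts. Its neighbours in the order of levels overlapped throughout, but on the adequate diet the stages did not overlap (7.33 to 7.39 in basophilic, 7.48 to 7.58 in proerythroblast arrays). Its stage difference was 0.07 on the deficient diet, -0.12 after median centring. On the adequate diet it was -0.18 (adjusted p = 0.237 by limma), 0.08 after quantile normalization. There it passed after median centring (-0.39, adjusted p = 0.0129) and without replicate 2 of both basophilic groups (-0.20, 0.0463).

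Aldoa, whose product splits fructose 1,6-bisphosphate, averaged 7.80 ± 0.08 in deficient basophilic erythroblasts and 8.07 ± 0.09 in deficient proerythroblasts. On the adequate diet it averaged 7.57 ± 0.05 in basophilic erythroblasts and 8.14 ± 0.10 in proerythroblasts. It fell by 0.57 with stage on the adequate diet (SE 0.11, adjusted p = 0.00217), a call lost under quantile normalization (-0.28, adjusted p = 0.195). On the deficient diet the difference was -0.27 (adjusted p = 0.0600), which passed without deficient basophilic replicate 2 (-0.29, adjusted p = 0.0434) and took the other sign, 0.12, under quantile normalization.

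Tpi1 showed the widest fall of the set, to 8.42 ± 0.25 in deficient basophilic erythroblasts, against 10.05 ± 0.13 in deficient proerythroblasts (-1.64, SE 0.17, adjusted p = 0.000174). On the adequate diet it was 8.65 ± 0.29 in basophilic erythroblasts, against 10.82 ± 0.09 in proerythroblasts (-2.18, adjusted p = 3.97e-06). In the order of levels, adequate proerythroblasts were above deficient proerythroblasts without overlap, these were above adequate basophilic erythroblasts without overlap, and the basophilic groups overlapped.

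Gapdh had 11.37, 11.31 and 11.33 in deficient and 11.36, 11.38 and 11.39 in adequate proerythroblasts, the narrowest spread of any gene of the set there. It fell by 0.72 with stage on the deficient diet (SE 0.18, adjusted p = 0.0110) and by 1.11 on the adequate diet (adjusted p = 0.000553). Gapdh has many pseudogene copies. Under that 1 symbol the annotation of the tested feature gives the gene IDs of both Gapdh and a pseudogene, Gapdh-ps15 in RefSeq, so its signal cannot be assigned to the gene alone. A second feature, which names Gapdh together with Gm7336 and was not tested, had 12.10, 11.59 and 12.18 in deficient basophilic, 11.88, 11.12 and 11.73 in adequate basophilic, 12.83, 12.71 and 12.77 in deficient proerythroblast and 12.78, 12.93 and 12.86 in adequate proerythroblast arrays. It too was lower in every basophilic array than in every proerythroblast array.

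Pgk1 had 7.83, 6.87 and 7.67 in deficient basophilic erythroblasts, 7.62, 6.35 and 7.53 in adequate basophilic erythroblasts, 8.94, 8.72 and 8.93 in proerythroblasts on the deficient diet and 9.13, 9.0 and 9.30 in those on the adequate diet. It fell by 1.41 with stage on the deficient diet (SE 0.32, adjusted p = 0.00800) and changed by -1.98 on the adequate diet (adjusted p = 0.000571). The gene lies on chromosome X (GRCm38.p6, chrX:106187100-106203699), while the ID of the brighter feature, from which these values come, places it on chromosome 12. The feature placed on chromosome X gave stage differences of -1.32 on the deficient and -1.67 on the adequate diet.

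Bpgm was the 1 gene of the set that rose with stage. It rose by 1.87 on the deficient diet (SE 0.17, adjusted p = 0.000133), or 3.65-fold, with 10.30 ± 0.16 in deficient basophilic erythroblasts against 8.43 ± 0.12 in deficient proerythroblasts. On the adequate diet it rose by 2.73 (adjusted p = 1.23e-06), or 6.62-fold, with 10.34 ± 0.33 in basophilic erythroblasts against 7.61 ± 0.19 in proerythroblasts. The basophilic groups overlapped at the top of the order, deficient proerythroblasts came next without overlap, and adequate proerythroblasts were lowest without overlap.

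Pklr had 8.32, 7.33 and 8.39 in deficient and 8.58, 7.55 and 8.33 in adequate basophilic erythroblasts, all below the lowest proerythroblast array at 9.03. It fell by 1.29 with stage on the deficient diet (SE 0.33, adjusted p = 0.0121) and changed by -1.89 on the adequate diet (adjusted p = 0.000951). The stage calls of Tpi1, Gapdh, Pgk1, Bpgm and Pklr held on both diets without each array in turn and under each other setting run. The median stage difference of the 9 genes was -0.27 on the deficient and -0.57 on the adequate diet, beside 0.08 and 0.12 over all genes. Median centring lowered the stage median of all genes by 0.19 on the deficient and 0.21 on the adequate diet. It subtracts 1 value per array from every gene, so the 9 genes moved by the same amounts. Their distance from the median of all genes stayed as it was.

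The promoters of Bpgm and Tpi1, called for the diet in proerythroblasts, are shown, with both starts of Pklr, which serve different tissues. Each line gives 250 bases before a RefSeq transcription start (GRCm38.p6), 5′ to 3′ on the gene's strand. Capitals mark matches to the short motifs AGATAA or AGATAG or TGATAA or TGATAG, read by GATA factors, and to CACACCC or CGCACCC, boxes read by the erythroid factor Klf1, on either strand.
Bpgm, chr6:34476106-34476355, plus strand: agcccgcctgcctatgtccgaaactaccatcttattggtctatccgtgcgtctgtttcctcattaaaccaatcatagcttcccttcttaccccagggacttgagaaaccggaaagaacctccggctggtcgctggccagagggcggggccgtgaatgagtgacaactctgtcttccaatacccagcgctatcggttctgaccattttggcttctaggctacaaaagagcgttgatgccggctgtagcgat
Tpi1, chr6:124814159-124814408, minus strand: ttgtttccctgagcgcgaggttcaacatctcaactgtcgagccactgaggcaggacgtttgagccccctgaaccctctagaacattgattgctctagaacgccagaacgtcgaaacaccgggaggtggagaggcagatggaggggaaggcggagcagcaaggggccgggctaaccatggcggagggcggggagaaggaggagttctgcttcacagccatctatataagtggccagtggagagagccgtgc
Pklr, first start, chr3:89135892-89136141, plus strand: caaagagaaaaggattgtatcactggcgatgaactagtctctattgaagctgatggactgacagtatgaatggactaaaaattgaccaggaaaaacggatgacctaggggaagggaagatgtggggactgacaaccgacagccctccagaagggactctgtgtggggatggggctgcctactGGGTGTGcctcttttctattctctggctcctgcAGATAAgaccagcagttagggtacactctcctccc
Pklr, second start, chr3:89136373-89136622, plus strand: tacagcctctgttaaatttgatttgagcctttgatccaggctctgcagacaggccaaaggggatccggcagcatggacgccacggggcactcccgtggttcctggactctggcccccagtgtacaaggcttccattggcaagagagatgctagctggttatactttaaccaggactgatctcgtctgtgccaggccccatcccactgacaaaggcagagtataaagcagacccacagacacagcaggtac

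The first start of Pklr is the one known to serve red cells, and the second the liver. The window of the first start holds AGATAA on the gene's strand from position -35 and CACACCC on the opposite strand from position -68, counted from the start, and that of the second holds neither. Over windows of 300 bases, which add 50 bases after the start, the 10 named genes had 14 windows, of which 3 held a GATA motif and 4 a CACCC box, beside 29.8% and 11.5% of all 32851 RefSeq windows. The hypoxia response core, ACGTG or GCGTG, was in 7 of the 14 windows, beside 43.8% of all. Neither Bpgm nor Tpi1 had a match of any of the 3 kinds, and a match or its lack in this window is a description of letters.

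Other enzymes that handle 2,3-bisphosphoglycerate were read beside Bpgm. Minpp1 encodes a phosphatase that can remove a phosphate from 2,3-bisphosphoglycerate. In proerythroblasts it fell to 8.12, 7.40 and 7.60 on the deficient diet, against 8.90, 8.89 and 8.46 on the adequate diet, with no overlap (-1.04, SE 0.22, adjusted p = 0.0213). That call was lost without adequate proerythroblast replicate 1 or 2 (adjusted p 0.107 and 0.105) or deficient proerythroblast replicate 2 or 3 (0.0981 and 0.102). In basophilic erythroblasts Minpp1 had 6.33, 6.26 and 6.35 on the deficient diet and 7.37, 6.64 and 7.15 on the adequate diet, also without overlap, a difference of -0.74 that did not pass (adjusted p = 0.408). With stage it changed by -1.39 on the deficient and -1.70 on the adequate diet, while Bpgm rose.

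Pgam1, the phosphoglycerate mutase of glycolysis, was picked out after its values were seen. It had 9.29, 8.62 and 9.71 in deficient and 8.30, 8.16 and 8.28 in adequate basophilic erythroblasts, and 9.93, 10.02 and 10.13 in deficient and 9.06, 9.21 and 9.45 in adequate proerythroblasts. The deficient arrays were all higher at both stages. The diet difference was 0.96 in basophilic erythroblasts (SE 0.22, adjusted p = 0.240) and 0.79 in proerythroblasts (adjusted p = 0.0817), so neither passed in the fit without a block. With the replicate number as a block within each stage both did (adjusted p = 0.0341 in basophilic erythroblasts and 0.0160 in proerythroblasts). Over all settings the adjusted p ran from 0.00292 to 0.999 in basophilic erythroblasts and from 5.39e-06 to 0.300 in proerythroblasts. The lowest in proerythroblasts came from array weights, which stopped before they converged.

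**Figure D3:**
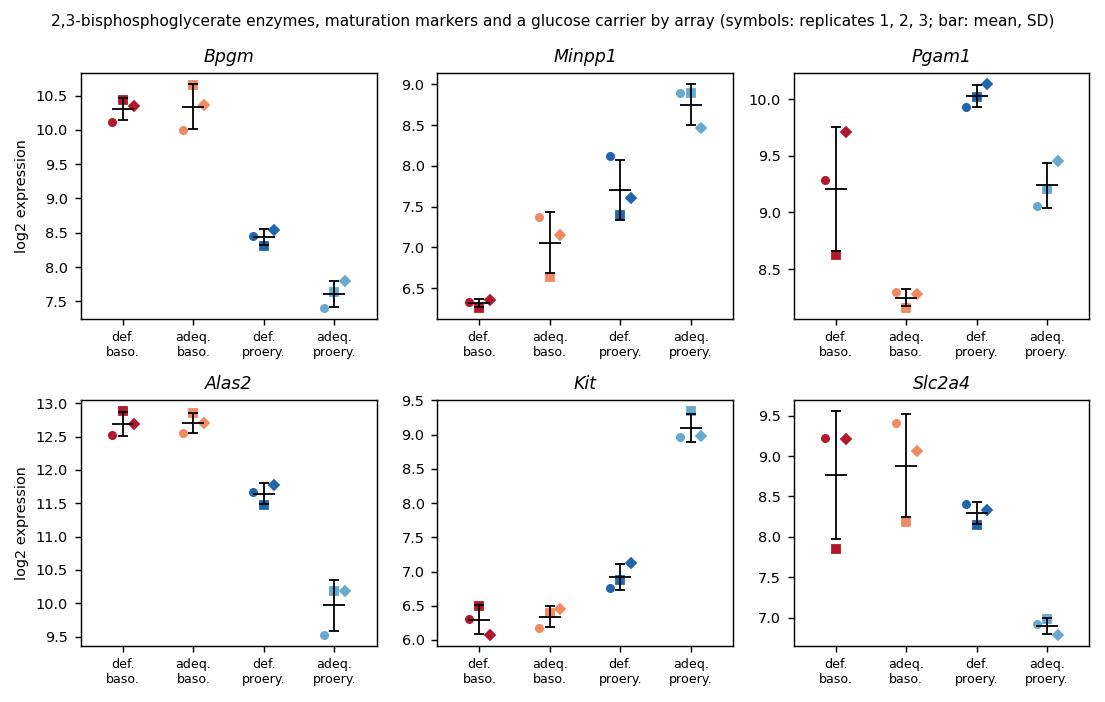
Log2 expression (y axis, 1 scale per gene) of Bpgm, Minpp1, Pgam1, the maturation markers Alas2 and Kit and the glucose carrier Slc2a4 by array, groups left to right as deficient basophilic, adequate basophilic, deficient proerythroblast and adequate proerythroblast (bars and whiskers, mean and SD, n = 3). Bpgm, Alas2 and Slc2a4 are lowest in adequate proerythroblasts, where Kit and Minpp1 are highest.

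Markers of maturation moved with the diet in the same arrays. Alas2, the erythroid enzyme that starts haem synthesis, had 11.67, 11.47 and 11.78 in deficient and 9.53, 10.19 and 10.19 in adequate proerythroblasts. Kit, the stem cell factor receptor of progenitors, had 6.76, 6.88 and 7.12 in deficient and 8.97, 9.34 and 8.98 in adequate proerythroblasts. Of the erythroid markers measured, 10 of 12 named, 5 rose on the deficient diet in proerythroblasts and none fell, and of 4 progenitor markers tested 3 fell. Of all genes 1.27% were higher and 2.76% lower in that comparison. The summed level of the erythroid list was 14.71 to 14.77 in deficient and 13.74 to 14.11 in adequate proerythroblasts, and that of the progenitor list 9.49 to 9.75 in deficient and 11.01 to 11.18 in adequate proerythroblasts. In basophilic erythroblasts none of either list passed for the diet, though with the block within each stage the erythropoietin receptor gene Epor was lower on the deficient diet (-0.62, adjusted p = 0.0403). With stage 4 of the 10 erythroid markers rose on the deficient diet, beside 31.1% of all genes, and 7 on the adequate diet, beside 28.7%. Of the 4 progenitor markers 3 fell on each diet, beside 24.9% of all genes on the deficient and 25.6% on the adequate diet. The part of this shift in the values of Bpgm, Tpi1 and Minpp1 was not tested.

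Markers of other cell types gave signal at both stages. Of 10 neutrophil markers 1 (Mmp9, a granule protease) rose on the deficient diet in proerythroblasts, beside 1.27% of all genes. The list's summed level was 11.18 to 12.31 in deficient and 10.67 to 12.53 in adequate proerythroblasts, which overlap. With stage 6 of the 10 fell on the deficient diet, beside 24.9% of all genes. On the adequate diet 7 fell and 1 rose, beside 25.6% and 28.7% of all genes. The summed level was 9.98 to 10.34 in deficient and 9.69 to 10.10 in adequate basophilic erythroblasts. Of 10 macrophage markers none passed for the diet at either stage, and their summed level was 9.66 to 10.16 in deficient basophilic, 9.66 to 10.14 in adequate basophilic, 9.41 to 10.32 in deficient proerythroblast and 9.16 to 10.48 in adequate proerythroblast arrays. Of 4 B cell and 4 T cell markers none passed in the diet or stage comparisons. Of 4 megakaryocyte markers 1 rose on the deficient diet in proerythroblasts, beside 1.27% of all genes. With stage 2 of them rose on each diet, beside 31.1% of all genes on the deficient and 28.7% on the adequate diet. The part of these cells in the stage differences was not tested.

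The rest of the pathway was read from lists of other glycolytic enzymes, flux regulators, sugar and lactate carriers, the pentose phosphate pathway, pyruvate entry to mitochondria and the hypoxia response. Of 71 genes named, 63 had a feature of their own. For the diet in basophilic erythroblasts none of the 57 tested genes of these lists passed, beside 0.0199% of all genes, and 6 had an unadjusted p under 0.05. In proerythroblasts 4 passed (7.02%), beside 4.02% of all genes (2.76% lower). All 4 were lower on the deficient diet: Minpp1, Pgd, Pdp2 and Egln1. With the block within each stage 2 passed in basophilic erythroblasts, Pgam1 and Pgd, both higher on the deficient diet, beside 1.45% of all genes. In proerythroblasts 10 then passed, beside 11.1% of all genes. They were the same 4 and Pgam1, Slc2a4, Bsg and Bnip3l higher and Pdha1 and P4ha1 lower. In the fit without a block none of 14 other glycolytic enzymes and none of 8 carriers passed in proerythroblasts, with 3 and 2 at an unadjusted p under 0.05.

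Pgd, which makes NADPH in the pentose phosphate pathway, fell to 7.73, 7.47 and 7.58 in deficient proerythroblasts, against 8.12, 8.11 and 8.08 in adequate proerythroblasts (-0.51, SE 0.12, adjusted p = 0.0339). In basophilic erythroblasts it had 7.73, 7.53 and 7.58 on the deficient diet and 6.99, 6.92 and 7.13 on the adequate diet, a difference of 0.60 the other way that did not pass by itself (adjusted p = 0.145; 0.0370 with the block within each stage). The interaction did, at 1.11 (SE 0.17, adjusted p = 0.0305). It was the 1 call of the interaction in these lists (1.75%, beside 0.303% of all genes). With the block Slc2a4 and Pdp2 joined it, beside 2.93% of all genes. The Pgd interaction passed in 3 of the 12 fits that left out an array, the exceptions being each adequate array, deficient basophilic replicate 1 and deficient proerythroblast replicates 2 and 3 (adjusted p 0.0617 to 0.128). The diet call in proerythroblasts passed in 5 of 12 and was lost without adequate basophilic replicate 1 or 3, any adequate proerythroblast array or deficient proerythroblast replicate 2 or 3 (0.0543 to 0.142).

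Pdp2 encodes a phosphatase that activates pyruvate dehydrogenase. It averaged 6.25 ± 0.07 in deficient and 7.10 ± 0.06 in adequate proerythroblasts (-0.85, adjusted p = 0.0123), a call that held in 9 of 12 fits without 1 array and was lost without adequate proerythroblast replicate 1 (0.0624) or deficient proerythroblast replicate 2 or 3 (0.0555 and 0.0522). Egln1, the prolyl hydroxylase that marks hypoxia-inducible factor for destruction, averaged 7.02 ± 0.22 in deficient and 7.60 ± 0.06 in adequate proerythroblasts (-0.57, adjusted p = 0.0297), and its call held in 6 of 12 such fits. It was lost without adequate basophilic replicate 3, any adequate proerythroblast array or deficient proerythroblast replicate 2 or 3 (0.0538 to 0.140). Slc2a4, the insulin-responsive glucose carrier, was picked out after its values were seen: it had 8.41, 8.15 and 8.33 in deficient and 6.92, 6.98 and 6.79 in adequate proerythroblasts. Its arrays were far apart, yet the difference of 1.40 (SE 0.36) just missed the threshold (adjusted p = 0.0537). With the block within each stage it passed (adjusted p = 0.000508), and over all settings the adjusted p ran from 1.41e-06 to 0.176. The lowest came from array weights, which stopped before they converged.

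With stage 35 of the 57 genes passed on the deficient diet (61.4%) and 37 on the adequate diet (64.9%), beside 56% and 54.2% of all genes, so these counts too say little about the lists. Of 14 other glycolytic enzymes 6 rose and 6 fell on each diet. Of all genes 31.1% rose and 24.9% fell on the deficient diet, and 28.7% and 25.6% on the adequate diet. Ldha, which reduces pyruvate to lactate, fell by 1.17 on the deficient and 1.67 on the adequate diet, and the muscle-type phosphofructokinase gene Pfkm by 1.14 and 1.09. Pfkp, the platelet type, fell by 0.61 on the deficient diet and Adpgk, an ADP-dependent glucokinase, by 1.22 on the adequate diet. The 6 that rose on each diet, listed after their values were seen, were Hkdc1, Aldoc, Gapdhs, Pgam2, Eno2 and Ldhb.

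These 6 were dim. Their mean levels ran from 5.82 to 6.44 in deficient and 5.72 to 6.31 in adequate basophilic erythroblasts, and from 5.29 to 6.06 in deficient and 5.24 to 5.85 in adequate proerythroblasts. The median of the background features moved the same way, averaging 4.06 in deficient and 3.87 in adequate basophilic arrays against 3.41 in deficient and 3.43 in adequate proerythroblast arrays, and its part in these rises was not tested. Under quantile normalization 3 of the list rose on the deficient and 0 on the adequate diet, while 5 fell on each; after median centring 2 rose and 7 fell on the deficient and 1 rose and 7 fell on the adequate diet.

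Of 8 carriers 4 rose on the deficient diet and none fell, beside 31.1% and 24.9% of all genes. On the adequate diet 5 rose and 1 fell, beside 28.7% and 25.6% of all genes. After median centring 1 carrier rose on the deficient diet. Slc16a1, a lactate and pyruvate carrier, rose by 0.74 on the deficient and 1.28 on the adequate diet, and Bsg, its partner in the membrane, by 0.33 and 0.68. Slc2a4 rose by 1.99 on the adequate diet. Of 11 genes of pyruvate entry 6 fell and 1 rose on the deficient diet, beside 24.9% and 31.1% of all genes. On the adequate diet 7 fell, beside 25.6% of all genes. Among those that fell were the pyruvate dehydrogenase subunit genes Pdha1 (-1.10 on the deficient and -1.64 on the adequate diet) and Dlat (-0.83 and -1.41).

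Of 5 genes of the pentose phosphate pathway 1 rose and 2 fell on each diet. Of all genes 31.1% rose and 24.9% fell on the deficient diet, and 28.7% and 25.6% on the adequate diet. Taldo1, a transaldolase, rose by 0.91 on the deficient and 0.48 on the adequate diet. Rpia, an isomerase of ribose 5-phosphate, fell by 0.33 and 0.40. Rpe fell by 1.07 on the deficient and Pgd by 1.09 on the adequate diet. Of 14 hypoxia response genes 4 rose and 2 fell on the deficient diet, and 5 rose and 3 fell on the adequate diet, beside the same shares of all genes. Bnip3l, which serves the removal of mitochondria in maturing red cells, rose by 1.37 on the deficient and 2.02 on the adequate diet. Hif1a, the oxygen-regulated subunit of hypoxia-inducible factor, fell by 0.99 and 1.09, and Egln1 by 0.93 and 1.42. Of the 5 flux regulators, Pfkfb4 and Tigar rose on the deficient diet, by 0.42 and 0.55, and Minpp1 fell on both. Pfkfb4 and Tigar were dim, averaging 6.76 and 6.20 in deficient basophilic erythroblasts and 6.34 and 5.65 in deficient proerythroblasts. The part of the background in the rises of these and other dim genes of the lists was not tested.

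Some of these stage splits and calls moved with the scaling or with 1 array. After median centring 3 hypoxia response genes rose and 4 fell on the deficient diet, 1 rose and 5 fell on the adequate diet, no gene of pyruvate entry rose on the deficient diet, and no gene of the pentose phosphate pathway rose on the adequate diet. Under quantile normalization 2 of the pentose phosphate pathway rose and 0 fell on the deficient diet. Leaving out 1 array took the adjusted p (limma) of the stage call on the deficient diet up to 0.0729 for Tigar, 0.126 for Bsg, 0.0636 for Rpe and 0.159 for Rpia. On the adequate diet it went up to 0.0971 for Rpia and 0.0890 for Taldo1. After median centring it was 0.412 for Bsg and 0.0532 for Tigar on the deficient and 0.215 for Taldo1 on the adequate diet. Under quantile normalization it was 0.0549 for Tigar on the deficient diet, and 0.251 and 0.189 for Rpia on the deficient and adequate diets. With the arrays of the contrast alone, calls on the deficient diet were lost for Pfkp (0.0526), Pfkfb4 (0.0736), Tigar, Bsg, Rpe and Rpia.

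**Figure D4:**
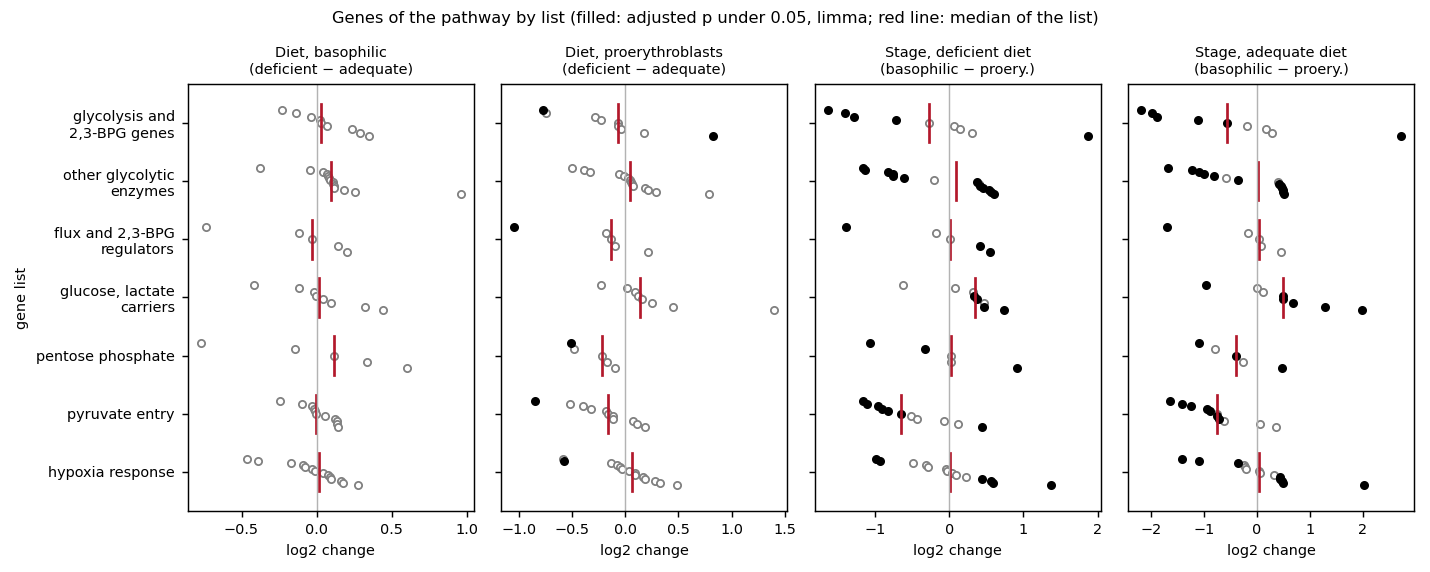
Log2 change (x axis, scaled per panel) of each tested gene of the set and of 6 related lists (y axis) for the diet at each stage and the stage on each diet; filled points have an adjusted p under 0.05 (limma) and red lines are list medians. No point is filled for the diet in basophilic erythroblasts, 6 are filled in proerythroblasts, and most are filled on both sides of 0 for the stage.

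Over the 12 arrays the genes whose values correlated most with those of Bpgm were Mkrn1 (Pearson r = 0.996), Ube2h (0.994), Cat (0.993), Gm2058 (0.993) and Tcp11l2 (0.993). For Pklr they were Ppil1 (0.992), Klhdc3 (0.990), Ints3 (0.990), Gbf1 (0.989) and Ints4 (0.989). Within the set Bpgm correlated with Tpi1 at -0.988, with Pgk1 at -0.932 and with Pklr at -0.932, and Gapdh with Pgk1 at 0.984. These coefficients describe 12 arrays that fall into stages, and all genes were read from the same arrays with the same backgrounds.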

How the data were processed

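RNA of sorted splenic erythroblasts (5 ng per sample) was labelled and hybridised to Affymetrix whole-transcript arrays, per the labels. The authors deposited 1 table of log2 expression values from the Affymetrix Expression Console software, per the submitters' processing notes; its version, background correction and normalization are not given in the sources used here. The deposited log2 values were used as they stand, and array medians and ranges differed.

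Of 72688 features 31258 named 1 gene, 1492 several and 39938 none (186 were controls); 1138 symbols were updated from RefSeq. Features naming several genes were left out, and of 442 genes with several features the one with the highest mean was used. Genes with 3 or more arrays above 5.30, the overall median, were tested. Group means were fitted over all 12 arrays with limma 3.58.1 in R 4.3.3 (lmFit, eBayes), with Benjamini-Hochberg adjustment over all 20129 genes and a threshold of 0.05. The fit was tested on simulated data in which arrays varied independently, so that test does not cover deviations shared between arrays. The summed level of a list is the log2 of its summed linear values.

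Same-numbered arrays of a stage deviated together across all genes (r 0.54 to 0.78 in basophilic, 0.18 to 0.52 in proerythroblast groups). Differently numbered arrays of opposite diets gave r of -0.76 to 0.598 in basophilic groups, which overlaps the same-numbered values. In proerythroblast groups they gave -0.395 to 0.08, below the same-numbered values. Deviations from a group mean cancel over its 3 arrays, so same-numbered and differently numbered values are not independent. The labels do not state that the numbers pair the diets, and these values do not settle it. The block within each stage therefore takes this pairing as an assumption. For same-numbered arrays across stages r ran from -0.16 to 0.28. Alternatives were other filters, quantile normalization, median centring, array weights, a trended and robust variance, the replicate block, averaging all features of a gene, the arrays of a contrast alone and leaving out arrays. The block within each stage and the Pgk1 feature on chromosome X were added after seeing the data. The text names all measured genes of the set, up to 3 called genes per related list and comparison, and the 5 genes most like Bpgm and Pklr. The genes and lists were chosen with earlier results of these data known.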

Additional observations from a re-analysis of the deposited data

Results flagged for a closer look

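The interaction term of limma, which tests whether the diet effect differed between the stages, passed for 3 genes named in the text. It passed for 61 of all 20129 genes (0.303%). Alas2 and Kit were picked from the marker lists, where 2 of 10 erythroid and 2 of 4 progenitor markers passed. For Pgd, of the pentose phosphate pathway, it was 1.11 (SE 0.17, adjusted p = 0.0305): 0.60 in basophilic erythroblasts and -0.51 in proerythroblasts, with no overlap between the diets at either stage. That call passed in 3 of the 12 fits that left out 1 array (adjusted p 0.00705 to 0.128). For Alas2 it was -1.67 (adjusted p = 0.0363), from -0.003 in basophilic erythroblasts and 1.67 in proerythroblasts, and it passed in 1 of 12 such fits, the one without deficient basophilic replicate 2 (0.0134 to 0.143). For Kit it was 2.13 (adjusted p = 0.00510), from -0.04 in basophilic erythroblasts and -2.18 in proerythroblasts. This call passed in all 12 fits (0.00427 to 0.0252). Groups of 3 arrays are too small for a test of whether 1 array lies far from the others of its group.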

How the results depend on the processing

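For the diet in proerythroblasts, against 2 genes past the threshold, there were 1 under quantile normalization (Tpi1), 1 under the trended and robust variance (Bpgm), 4 under array weights, which stopped before they converged and called 8010 of all genes, and 0 to 2 without each array in turn. The replicate block left the counts at 0 and 2 for the diet in basophilic erythroblasts and proerythroblasts, 5 and 6 for the stage on the deficient and adequate diets and 0 for the interaction; within each stage it gave 3 in proerythroblasts, 0 in basophilic erythroblasts and 1 for the interaction (Bpgm). Stage counts ran from 5 to 7 on the deficient and 6 to 8 on the adequate diet, and the other counts of 0 stayed at 0 in every setting run; the interaction was not fitted on the arrays of a contrast alone.

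Values that took the other sign were all of genes that had not passed. For the diet in basophilic erythroblasts these were Hk1 after median centring (-0.038) and array weights (-0.016), Hk2 without replicate 2 of both groups (-0.025), Pfkl after median centring (-0.042), array weights (-0.10) and without replicate 2 (-0.085), and Bpgm after quantile normalization (0.062), array weights (0.215) and without replicate 2 (0.055). Leaving out 1 array moved the same differences from -0.23 to 0.29 for Hk1, -0.062 to 0.133 for Hk2, -0.11 to 0.10 for Pfkl, -0.12 to 0.58 for Pgk1, -0.21 to 0.12 for Bpgm and -0.44 to 0.20 for Pklr. In proerythroblasts Hk2 was 0.007 under array weights. For the stage on the deficient diet Hk1 was -0.05 after median centring (-0.042 to 0.398 leaving out 1 array), Pfkl -0.12 after median centring, -0.018 under array weights and -0.058 without replicate 2 (-0.058 to 0.147), and Aldoa 0.12 after quantile normalization. On the adequate diet Hk2 was -0.035 after median centring and Pfkl 0.077 after quantile normalization. The interaction of Hk1 ran from -0.41 to 0.11 leaving out 1 array. The cause was not tested. Of the other alternatives for the set, 952 kept both sign and side of the threshold, 13 lost a call and 17 gained one. For the calls of the genes named from the related lists, at most 3 per list and comparison, 778 alternatives kept the call and 84 lost it, and none changed its sign. Quantile normalization lowered the genes called for the stage on the adequate diet to 6563, against 10911, and for the interaction to 23, against 61; it raised those for the diet in basophilic erythroblasts to 50, against 4. Array weights gave 155 there and 483 for the interaction. Without 1 array the interaction called 12 to 36 of all genes, and 282 without deficient basophilic replicate 2. With 3 arrays a group, precision is limited for all values.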
